A study of Mus musculus with 18 samples.

Results

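The transcription factor SPI1 (PU.1) was lowered for 48 h in a mouse erythroleukemic cell line, and the RNA of every gene was compared with that of the same line left untreated. The cells are erythroid blasts from mice that carry the TgSpi1 transgene, and the line, #763, carries a doxycycline-inducible short hairpin RNA against Spi1. The NoDox group (labelled Dox_Untreated) received no drug and the Dox group (labelled Dox_Treated) received doxycycline for 48 h. Each group had 3 libraries, which the labels call biological replicates, so the comparison rests on 6 of the 18 libraries of the series. Both groups share the transgene, the hairpin cassette and culture with erythropoietin, and neither received DMSO. All cells come from 1 line, and the labels name no control hairpin, so an effect of the drug and an effect of lower Spi1 RNA cannot be told apart. The same line was also sequenced in a separate deposit of 12 libraries, with or without doxycycline. These cells received DMSO as vehicle or entinostat (3 µM for 6 h). The groups NoDox_DMSO and Dox_DMSO are given beside the results, and the entinostat groups are not.

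SPI1 is an ETS-family activator of macrophage, neutrophil and B cell genes, and it is normally switched off when erythroid precursors mature. It binds DNA through a core sequence rich in purines, and in erythroid cells it is known to oppose GATA1, the master regulator of red cell genes. Mice that overproduce SPI1 in the erythroid lineage develop an erythroleukemia whose blasts are arrested before terminal maturation, a stage at which hemoglobin, heme enzymes and the spectrin-based membrane skeleton are made.

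Library totals ranged from 82.7 to 114 M counts, and levels are given in CPM (TMM-scaled counts per M counts), always in the order of replicate numbers 1, 2 and 3. The erythroid markers Gata1, Klf1, Epor and Tfrc were present in all 6 libraries, Gata1 at 252 to 302 CPM. The macrophage markers Csf1r, Cd14, Itgam and Mrc1 stood under 0.5 CPM in every library. Cd68 stood at 2.18 to 2.45 CPM in NoDox and 0.756 to 1.05 CPM in Dox, and Fcgr1 at 0.718 to 1.02 CPM and 0.0458 to 0.112 CPM. Doxycycline separated the libraries on the first principal component (81.5% of the variance of the 500 most variable genes), and the replicate number separated them on the second (14.4%). Counts come from a fit without the replicate number, unless they are said to come from a fit that has it as a block, called the block below.

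Spi1, the hairpin's target, stood at 379, 455 and 459 CPM in NoDox and 133, 125 and 132 CPM in Dox. The 3 treated libraries lay close together and below all untreated ones, and on the log2 scale the change was -1.73 ± 0.10 (standard error, as after every ± beside a log2 fold change; adjusted p = 0.000828, edgeR's quasi-likelihood test with Benjamini-Hochberg adjustment, as for all adjusted p below). The table has 1 entry for Spi1, so RNA of the transgene and of the endogenous gene cannot be told apart. Among all genes, 727 of 13811 tested genes rose and 1154 fell at an adjusted p under 0.05, which is 5.26% and 8.36% of the genes tested. These 2 percentages are the background for the counts of list members from this fit. A gene with little RNA in 1 group can pass the filter on low counts through the other group. Such a gene has to differ, so counts of list members describe the lists and do not by themselves support a direction. The median log2 fold change of the genes that rose was 0.78 and of those that fell -0.95, and a change of at least 2-fold was seen in 275 rises and 542 falls. All 1881 calls had the same sign in each of the 3 pairs of equal replicate number. The block gave 3611 rises and 3416 falls (26.1% and 24.7%, the background for counts with the block), lost none of the 1881 calls and turned none around. Depending on which library was left out, 197 to 567 genes rose and 487 to 941 fell, with the fewest in each direction without NoDox replicate 3. The rises numbered 312 without Dox replicate 3, 359 without Dox replicate 2 and 466 without NoDox replicate 1, and the falls 582 without Dox replicate 3 and 693 without Dox replicate 2. Below, a count or call given as without a library comes from the fit that omits it, which has its own background. The share of tested genes that rose was 3.3%, 3.86% and 1.39% without NoDox replicates 1, 2 and 3 in turn and 4.07%, 2.57% and 2.2% without Dox replicates 1, 2 and 3. The share that fell was 6.49%, 6.24% and 3.44% without NoDox replicates 1, 2 and 3 in turn and 6.75%, 4.96% and 4.11% without Dox replicates 1, 2 and 3. In all, 189 rises and 466 falls were called in each of the 6 fits that omit a library.

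**Figure D1:**
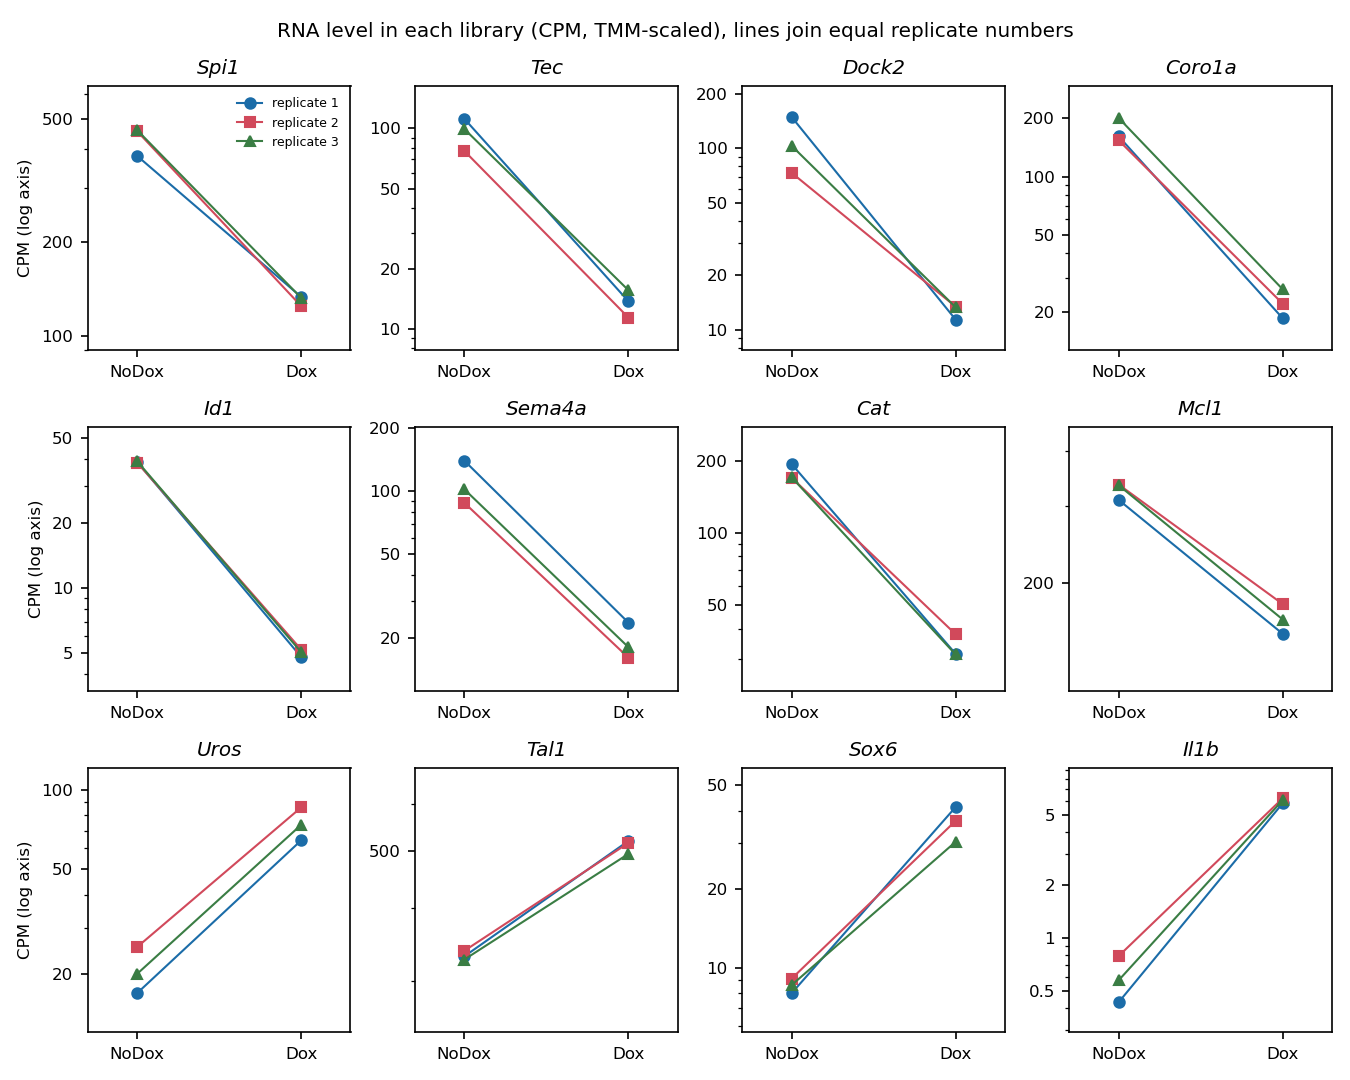
RNA level of 12 genes in each library, in CPM on a log axis, for NoDox and Dox, with lines joining equal replicate numbers. In each of these genes the 3 treated libraries lie on one side of the 3 untreated ones: Spi1, Tec, Dock2, Coro1a, Id1, Sema4a, Cat and Mcl1 below, Uros, Tal1, Sox6 and Il1b above.

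The share of promoters with a SPI1-type sequence was 8.22% among genes that fell and 2.53% among genes that rose. The letters GAGGAAGT, searched on both strands from 250 bases before to 50 bases after the start in the RefSeq promoters of GRCm38.p6 (9138 tested genes matched), stood in 68 of 827 genes that fell (95% Wilson interval of the share 6.54% to 10.3%) and in 14 of 553 genes that rose (1.51% to 4.2%). They stood in 3.34% of 7758 genes not called and in 3.69% of all 27025 genes in the table. Among genes that fell at least 2-fold the share was 10.8% (8.06% to 14.4%); the CACCC letters described next stood in 10.03% of the same genes (7.36% to 13.5%), and in 7.96% of those that rose at least 2-fold. The GATA letters AGATAAG stood in 3.07% of the genes that rose, 3.87% of those that fell and 2.33% of those not called, against 3.5% of all genes in the table. The CACCC letters CCACACCC, a motif of KLF factors, stood in 5.43%, 7.86% and 4.25% of these 3 sets, against 4.09% of all. Both were searched on both strands, and none of the 3 motifs contains another. Many genes have several windows in the table (1.33 on average in both called sets, 1.25 in those not called), and a gene counts if any window holds the letters. The intervals cover counting error only, genes are not independent, and a match is a description of letters, not a binding site. Among genes called by the block, the share of GAGGAAGT was 6.05% in falls, 2.48% in rises and 3.10% in genes not called, and that of CCACACCC 5.89%, 4.22% and 4.15%. The letters of all 3 motifs stood in a larger share of the falls than of the genes not called. For AGATAAG the intervals of these 2 shares were 2.75% to 5.41% and 2.02% to 2.69%. AGATAAG stood in 4.61% of the genes that fell at least 2-fold and in 4.975% of those that rose at least 2-fold. With the block its share was 2.845% in falls, 2.52% in rises and 2.305% in genes not called.

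The next stretches of 60 bases show where the letters lie in 3 of the signalling and surface genes that fell, and then in 3 red cell genes that rose. They were chosen after their values were seen, from genes called in all fits that omit a library, with a mean of at least 5 CPM and no overlap between groups. SPI1-type stretches were sought only among falls and GATA stretches only among rises, so they show no split between the motifs. Each is written 5′ to 3′ on the gene's own strand of GRCm38.p6, credited to RefSeq, with the motif in capitals; ACTTCCTC and CTTATCT are the same motifs on the opposite strand. Pik3cg lies at chr12:32208628-32208687 (minus strand), Cd37, a tetraspanin of leukocytes, at chr7:45238840-45238899 (minus strand), and Grb2, the adaptor that links receptors to RAS, at chr11:115699557-115699616 (minus strand). Epb42, which anchors the red cell skeleton, lies at chr2:121037068-121037127 (minus strand), Pklr, the pyruvate kinase of red cells, at chr3:89136081-89136140 (plus strand), and Trim10, a ubiquitin ligase of maturing erythroid cells, at chr17:36869384-36869443 (plus strand).
Pik3cg: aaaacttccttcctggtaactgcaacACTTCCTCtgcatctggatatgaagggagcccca
Cd37: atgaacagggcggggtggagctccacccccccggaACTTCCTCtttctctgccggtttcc
Grb2: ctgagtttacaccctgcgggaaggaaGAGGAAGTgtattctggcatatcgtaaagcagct
Epb42: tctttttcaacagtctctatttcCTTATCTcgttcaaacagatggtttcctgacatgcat
Pklr: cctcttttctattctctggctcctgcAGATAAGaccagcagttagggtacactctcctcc
Trim10: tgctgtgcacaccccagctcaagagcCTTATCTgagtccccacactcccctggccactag
Beside these promoters, Cd37 stood at 56.5, 68.4 and 62.3 CPM in NoDox and 30.3, 34.5 and 34.9 CPM in Dox (-0.91 ± 0.11). Grb2 stood at 334, 316 and 318 CPM in NoDox and 198, 189 and 199 CPM in Dox (-0.72 ± 0.07). Epb42 changed by 2.64 ± 0.14, Pklr by 1.44 ± 0.17 and Trim10 by 1.36 ± 0.13.

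Genes that carry signals from immune receptors were lower after doxycycline. Of 28 tested adaptors and kinases, 17 fell and 1 rose, with a median log2 fold change of -0.91 against 0.02 over all genes tested (23 and 2 with the block). These counts include Tyrobp (from 0.231 ± 0.0923 to 0.0107 ± 0.000687 CPM), which passed the filter on low counts only through NoDox. Summed over all 38 in the table, filtered or not, the level was 1758, 1310 and 1507 CPM in NoDox and 876, 679 and 772 CPM in Dox. Tec, a cytoplasmic tyrosine kinase, stood at 112, 77.1 and 99.2 CPM in NoDox and 13.7, 11.4 and 15.6 CPM in Dox. Its treated libraries were all far below its untreated ones (-2.82 ± 0.19, a log2 fold change as in all parentheses below, adjusted p = 0.000926). Sla, an adaptor that dampens antigen receptor signals, stood at 18.7, 22.7 and 29.3 CPM in NoDox and 1.598, 3.66 and 4.604 CPM in Dox (-2.84 ± 0.40). Pik3cg, the gamma catalytic subunit of phosphoinositide 3-kinase, stood at 70.9, 52.2 and 63.9 CPM in NoDox and 19.5, 16.9 and 19.4 CPM in Dox, without overlap (-1.75 ± 0.14, adjusted p = 0.00133). The related delta subunit Pik3cd changed by -1.32 ± 0.27, from 251 ± 70.2 to 101 ± 27.99 CPM (group means ± SD, n = 3, as for all such pairs of means). The Src-family kinase Lyn (-0.99 ± 0.07), the adaptor Skap2 (-0.84 ± 0.10), the phosphatase Ptpn6, which turns off activated receptors (-0.78 ± 0.08), and Nckap1l, the blood cell subunit of the actin-nucleating WAVE complex (-0.93 ± 0.09), fell by smaller amounts. Plcg1, a phospholipase C found in most tissues (0.15 ± 0.33, adjusted p = 0.864), did not pass the test, and the adaptor Grap2 went the other way from low levels (from 0.174 ± 0.0783 to 0.496 ± 0.0777 CPM, 1.48 ± 0.35). Leaving out a library gave between 12 and 17 falls in this list. The calls of Pik3cd and Grap2 were among those lost, the first without NoDox replicate 3, Dox replicate 2 or Dox replicate 3 (adjusted p up to 0.102) and the second in all such fits but that without NoDox replicate 1 (up to 0.123).

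The actin and adhesion machinery of leukocytes was lower as well. In a list of 37 tested genes, 25 fell and 2 rose, with a median of -1.06 (34 and 2 with the block). Leaving out a library gave between 20 and 25 falls in this list. Fermt3 (-0.48 ± 0.14, adjusted p = 0.0711) and Tln1 (-0.39 ± 0.64, adjusted p = 0.792) did not pass without the block. Summed over all 45 in the table, filtered or not, the level was 5854, 4906 and 5352.5 CPM in NoDox and 3692.5, 3161 and 3296 CPM in Dox. Dock2, which activates the GTPase Rac in migrating leukocytes, stood at 149, 73.5 and 104 CPM in NoDox and 11.4, 13.5 and 13.4 CPM in Dox. Coro1a, a coronin that binds actin, stood at 161, 154 and 201 CPM in NoDox and 18.4, 21.9 and 26.04 CPM in Dox. In both genes the lowest untreated library was several times above the highest treated one, and the log2 fold changes were -3.09 ± 0.27 and -2.96 ± 0.17. The largest falls by fold in this list included the myosin Myo1g (from 5.76 ± 1.59 to 0.168 ± 0.0485 CPM, -5.09 ± 0.33) and the intermediate filament Vim (from 5.74 ± 0.822 to 0.394 ± 0.181 CPM, -3.87 ± 0.33). The actin-bundling gene Lcp1 changed by -2.44 ± 0.17, the capping protein Capg by -2.23 ± 0.18, the integrin beta 2 chain Itgb2 by -2.13 ± 0.13 and Arpc1b, a subunit of the Arp2/3 complex, by -1.82 ± 0.07. Smaller falls were measured in Arhgdib, an inhibitor of small GTPases, at 468, 527 and 524 CPM in NoDox and 206, 236 and 242 CPM in Dox (-1.15 ± 0.10). Spn (CD43), a sialoglycoprotein of leukocyte surfaces, stood at 547, 534 and 558 CPM in NoDox and 300.2, 315 and 300.02 CPM in Dox (-0.84 ± 0.07). Their groups did not overlap either. Ezr, which links actin to the membrane, and Itgb1, an integrin chain of most cell types, were the 2 members that rose (0.50 ± 0.12 and 0.53 ± 0.10). Neither call was kept in all fits that omit a library: the call of Ezr held only without NoDox replicate 1, and that of Itgb1 only without NoDox replicate 2 or Dox replicate 1 (adjusted p up to 0.161 and 0.107).

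Among receptors and lysosomal genes of phagocytes, most members that were called fell. Of 52 macrophage receptor and myeloid surface genes in the table, only 25 passed the filter on low counts; 12 of these fell and 0 rose (0 at an unadjusted p under 0.05, 0 by DESeq2), and 20 fell and 2 rose with the block. Summed over all 52, the level was 194, 209 and 211 CPM in NoDox and 101, 124 and 112 CPM in Dox, and 10 genes were at the table's lowest value in every library. A member that passed the filter only through its untreated libraries had to be lower, so these counts describe the list and do not support a direction. Lair1, an inhibitory receptor for collagen, went from 13.04 ± 2.01 to 1.46 ± 0.541 CPM (-3.16 ± 0.30) and Cd84, a receptor of the SLAM family, from 31.2 ± 5.105 to 5.905 ± 1.92 CPM (-2.40 ± 0.26). In the list of 20 phagocyte oxidase and lysosome genes 7 fell and 1 rose (14 and 3 with the block). Laptm5, a lysosomal membrane protein of blood cells, stood at 274, 272 and 254 CPM in NoDox and 50.9, 72.1 and 81.95 CPM in Dox (-1.96 ± 0.18), and the oxidase subunit Cyba changed by -2.32 ± 0.35. Lamp1, a membrane protein of all lysosomes (0.06 ± 0.10, adjusted p = 0.794), did not pass the test. Of 16 annexin, galectin and S100 genes 6 fell, among them S100a10 (-1.40 ± 0.14) and Anxa5 (215, 247 and 225 CPM in NoDox and 95.02, 114 and 108 CPM in Dox), and 14 fell and 1 rose with the block.

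The proteasome subunits that prepare peptides for antigen presentation were lower. Of 18 genes of antigen presentation 6 fell and 0 rose (0 at an unadjusted p under 0.05, 0 by DESeq2), against 12 and 1 with the block. Psmb8 and Psmb9, catalytic subunits of the immunoproteasome, changed by -0.88 ± 0.19 and -0.94 ± 0.22, and the peptide transporter Tap1 by -0.61 ± 0.13. The falls numbered 2 without NoDox replicate 2, NoDox replicate 3 or Dox replicate 2. The calls of all 3 genes were lost in these fits among others (adjusted p up to 0.117, 0.155 and 0.126). H2-D1, a class I heavy chain, stood at 166, 226 and 204 CPM in NoDox and 161, 218 and 207 CPM in Dox (adjusted p = 0.956), with overlapping groups. Of 41 interferon-stimulated genes 1 fell and 1 rose, and with the block 17 fell and 8 rose.

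Few markers of neutrophils, B cells, T and NK cells and stromal or endothelial cells passed the filter on low counts. More of the mast cell and megakaryocyte markers did. Among 19 listed neutrophil granule genes the number tested was 1, among 20 B cell genes 2, among 15 T and NK cell genes 1 and among 16 stromal and endothelial genes 3. The 15 mast cell and basophil genes summed to 424, 413 and 404 CPM in NoDox and 294, 282 and 269.99 CPM in Dox. Most of this came from Alox5 and Il1rl1 (-0.42 ± 0.07), whose call was lost without NoDox replicate 3, Dox replicate 2 or Dox replicate 3 (adjusted p up to 0.0766). Fcer1a (0.08 ± 0.68, adjusted p = 0.970) and Hdc (-0.24 ± 0.21, adjusted p = 0.556), from the same list, did not pass. Of 7 tested 5 fell, or 2 without NoDox replicate 3, Dox replicate 2 or Dox replicate 3 and 3 without NoDox replicate 1 or Dox replicate 1. Their falls include Alox5, the 5-lipoxygenase that starts leukotriene synthesis, at 107, 102 and 99.4 CPM in NoDox and 49.9, 46.3 and 51.3 CPM in Dox (-1.06 ± 0.08); Alox5ap, its activating partner outside this list, changed by -2.91 ± 0.30. The 26 megakaryocyte and platelet genes summed to 760.2, 836 and 866 CPM in NoDox and 462, 549.5 and 599 CPM in Dox, with 3 falls and 1 rise among 20 tested. The falls numbered 0 without NoDox replicate 3 and 1 without Dox replicate 2, the rise was lost without NoDox replicate 1, NoDox replicate 2, Dox replicate 2 or Dox replicate 3, and with the block 9 fell and 3 rose. In bulk RNA, fewer cells of a type and less RNA per cell cannot be told apart, and the part of such cells in the falls was not tested.

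Among transcription factors, several other ETS genes and progenitor regulators were lower, and several erythroid regulators moved in opposite directions. Of 17 ETS genes 7 fell, Spi1 included, and 0 rose (1 at an unadjusted p under 0.05, 0 by DESeq2). The falls numbered 3 without NoDox replicate 3, Dox replicate 2 or Dox replicate 3, and 13 with the block, which also counted 2 rises. Elf1, a factor of lymphoid and myeloid genes, stood at 131, 115 and 137 CPM in NoDox and 67.8, 64.6 and 74.2 CPM in Dox (-0.89 ± 0.10). Fli1, a megakaryocyte factor that Friend virus activates in erythroleukemia, stood at 35.8, 19.6 and 28.5 CPM in NoDox and 18.01, 8.25 and 11.8 CPM in Dox and did not pass the test (-1.14 ± 0.34, adjusted p = 0.0806); with the block it did (adjusted p = 9.32e-07). Id1, an inhibitor of basic helix-loop-helix factors, stood at 38.6, 38.3 and 38.9 CPM in NoDox and 4.79, 5.19 and 5.05 CPM in Dox, with little spread within either group (-2.94 ± 0.08, adjusted p = 0.000178). Ikzf2 (Helios, -1.99 ± 0.19) and Hhex (-0.98 ± 0.09), both factors of stem and progenitor cells, fell too, in a list of 16 with 6 falls (3 without NoDox replicate 3 or Dox replicate 3) and 0 rises (3 at an unadjusted p under 0.05, 0 by DESeq2), against 9 and 4 with the block. Myb, needed by immature progenitors, changed by -0.44 ± 0.07 and lost its call without NoDox replicate 3 or Dox replicate 3 (adjusted p up to 0.061), while Gata2 (-0.04 ± 0.19, adjusted p = 0.94) and Runx1 (-0.01 ± 0.12, adjusted p = 0.978) did not pass.

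On the erythroid side, Sox6, a repressor of embryonic globin, stood at 7.99, 9.09 and 8.59 CPM in NoDox and 41.3, 36.6 and 30.4 CPM in Dox (2.08 ± 0.14). Tal1, a partner of GATA1, stood at 330.5, 338 and 326 CPM in NoDox and 519, 515 and 494 CPM in Dox (0.62 ± 0.06, adjusted p = 0.00263). Klf3, a repressor that KLF1 activates, rose by 0.56 ± 0.07. The treated libraries of these 3 genes were all above the untreated ones. Gata1 stood at 252, 279.8 and 272 CPM in NoDox and 285, 294 and 302 CPM in Dox (0.13 ± 0.07, adjusted p = 0.326). Klf1 stood at 199, 243 and 215 CPM in NoDox and 245, 262 and 257 CPM in Dox (0.22 ± 0.09, adjusted p = 0.199). Neither passed the test without the block; with it the adjusted p was 0.0101 and 0.00186. Going the other way, Lyl1, a relative of TAL1, fell (-0.61 ± 0.10), as did Nfe2, a factor of globin and platelet genes (-0.44 ± 0.08); both calls were lost without NoDox replicate 3, among other libraries (adjusted p up to 0.0589 and 0.0953). Of 20 erythroid factors 5 rose and 3 fell, and with the block 11 and 6; the rises numbered 3 without NoDox replicate 3 or Dox replicate 3, and the falls 0 without NoDox replicate 3 and 1 without Dox replicate 3. Irf5, a factor of inflammatory genes from a list of myeloid partners of SPI1, went from 8.25 ± 1.15 to 2.69 ± 0.237 CPM (-1.62 ± 0.15). Of 14 tested in that list 1 fell and 1 rose (4 and 4 with the block). The rise was Cebpb (0.58 ± 0.13), whose call held only without NoDox replicate 2 or Dox replicate 1 (adjusted p up to 0.145).

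Ligands, receptors and feedback regulators changed in both directions. Il1b, the inflammatory cytokine IL-1 beta, stood at 0.431, 0.7897 and 0.575 CPM in NoDox and 5.84, 6.23 and 6.08 CPM in Dox (3.32 ± 0.23), a rise in all 3 pairs. Tnf, another inflammatory cytokine, went from 0.613 ± 0.0468 to 0.0529 ± 0.00767 CPM (-3.49 ± 0.22). Tgfb1, a ligand that restrains blood cell growth, stood at 270.5, 252 and 253 CPM in NoDox and 136, 120.3 and 139 CPM in Dox (-0.97 ± 0.08). In the guidance family, Sema4a, a semaphorin of immune cells, stood at 139.8, 87.99 and 102 CPM in NoDox and 23.6, 16.04 and 17.99 CPM in Dox (-2.52 ± 0.23). Plxna2, a semaphorin receptor, went from 0.271 ± 0.03301 to 2.43 ± 1.05 CPM (3.16 ± 0.35) and the ephrin Efna2 from 0.0832 ± 0.0228 to 0.378 ± 0.0528 CPM (2.19 ± 0.27). Tnf was so low in Dox and Efna2 in NoDox that each passed the filter on low counts through its other group, so these calls had to show a difference and are given as values. Downstream of the erythropoietin receptor, the feedback inhibitor Socs3 (from 0.482 ± 0.0493 to 1.496 ± 0.286 CPM) and the docking adaptor Gab1 (from 1.704 ± 0.118 to 4.29 ± 0.484 CPM) rose by 1.63 ± 0.20 and 1.33 ± 0.14. The STAT5 targets Pim1 (-0.43 ± 0.14, adjusted p = 0.105) and Cish (-0.15 ± 0.17, adjusted p = 0.7) did not pass the test. Of 27 genes of that pathway 5 rose and 4 fell (10 and 11 with the block), and the rises numbered 3 without NoDox replicate 3. Among 26 feedback genes of receptor tyrosine kinases 3 rose and 5 fell, and with the block 6 and 11. The rises numbered 1 without NoDox replicate 3, and the falls 2 without NoDox replicate 3, Dox replicate 2 or Dox replicate 3 and 3 without NoDox replicate 1, NoDox replicate 2 or Dox replicate 1. Spry1, a feedback inhibitor, changed by 1.02 ± 0.13 and the RAS inhibitor Rasal3 by -1.91 ± 0.26. Dusp8, a phosphatase of stress kinases outside the list, went from 0.6098 ± 0.324 to 6.002 ± 1.16 CPM (3.28 ± 0.38).

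Genes of heme synthesis were higher after doxycycline. Of 25 genes of heme synthesis and mitochondrial iron 11 rose and 0 fell (0 at an unadjusted p under 0.05, 0 by DESeq2), against 21 and 3 with the block, and the median was 0.48. Along the pathway, Uros, which closes the tetrapyrrole ring, stood at 16.9, 25.3 and 20.04 CPM in NoDox and 64.4, 85.8 and 73.7 CPM in Dox (1.85 ± 0.18, adjusted p = 0.00216). Ppox, 1 step before iron is inserted, stood at 18.3, 21.04 and 18.9 CPM in NoDox and 46.3, 42.9 and 42.9 CPM in Dox (1.18 ± 0.09). In both enzymes each treated library was above each untreated one. Fech, which inserts the iron (0.68 ± 0.11), Cpox (0.69 ± 0.12), Slc25a37 (mitoferrin, 1.08 ± 0.18) and Abcg2, an exporter of porphyrins (1.21 ± 0.20), also rose. The rises numbered 3 without NoDox replicate 3, 6 without Dox replicate 2 and 7 without Dox replicate 3, and these 4 genes lost their calls without NoDox replicate 3 (adjusted p up to 0.0694, 0.0731, 0.0697 and 0.0679). The 3 members that fell with the block were the heme oxygenases Hmox1 and Hmox2, which degrade heme, and the exporter Flvcr1, none of which passed without it.

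Genes of iron uptake, storage and export changed in both directions. Erfe (erythroferrone), the hormone by which erythroid cells release iron stores, stood at 6.24, 6.69 and 4.91 CPM in NoDox and 21.7, 15.5 and 13.03 CPM in Dox (1.49 ± 0.22). Tfrc, the transferrin receptor, stood at 2868, 3196 and 2936 CPM in NoDox and 4413, 4914 and 4454 CPM in Dox (0.61 ± 0.09). Hfe, which binds the transferrin receptor, went from 2.42 ± 0.03503 to 0.9403 ± 0.0213 CPM (-1.36 ± 0.12), and Ireb2, an iron regulatory protein, changed by -0.31 ± 0.06. Of the metal importers Slc39a8 and Slc39a14, from the same family, the first rose (0.75 ± 0.16) and the second fell (-0.51 ± 0.09). Tfrc lost its call without NoDox replicate 3 (adjusted p = 0.0642), Ireb2 in every fit that omits a library (up to 0.129), and both importers without NoDox replicate 3, Dox replicate 2 or Dox replicate 3, Slc39a8 also without NoDox replicate 1 (up to 0.133 and 0.0819). Of 17 iron genes 3 rose and 4 fell. The rises numbered 1 without NoDox replicate 3, and the falls 1 without NoDox replicate 3, Dox replicate 2 or Dox replicate 3 and 2 without NoDox replicate 1, NoDox replicate 2 or Dox replicate 1. With the block 11 rose and 4 fell, with the ferritin heavy chain Fth1 among the rises (0.43 ± 0.05, adjusted p = 0.00019).

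Genes of the red cell membrane were mostly higher or not called. Of 23 membrane skeleton genes 10 rose and 1 fell, and of 30 surface and transporter genes 13 rose and 1 fell. With the block these became 14 and 5, and 22 and 5. The rises numbered 5 without NoDox replicate 3 and 6 without Dox replicate 2 in the skeleton list, and 7 without NoDox replicate 3, Dox replicate 2 or Dox replicate 3 in the surface list. Add2, the beta adducin that caps actin in the skeleton, stood at 16.3, 16.1 and 13.9 CPM in NoDox and 89.3, 54.4 and 59.1 CPM in Dox (2.13 ± 0.21). Aqp1, the water channel, stood at 71.6, 105 and 97.8 CPM in NoDox and 286, 315 and 318 CPM in Dox (1.74 ± 0.15). Slc29a1, a nucleoside transporter, stood at 139, 169.8 and 138 CPM in NoDox and 278, 290.4 and 292 CPM in Dox (0.94 ± 0.10). Kel, the Kell antigen, stood at 13.9, 18.9 and 14.6 CPM in NoDox and 39.9, 36.8 and 34.04 CPM in Dox (1.22 ± 0.14). None of these overlapped between groups. Against the lists, the glucose transporter Slc2a1 fell (-0.82 ± 0.16), a call that held in 1 of the fits that omit a library, that without Dox replicate 2 (adjusted p up to 0.0922). Sptan1, the spectrin of non-erythroid cells, stood at 15.4, 3.01 and 7.33 CPM in NoDox and 2.79, 0.824 and 0.825 CPM in Dox and passed only with the block (adjusted p = 0.082, and 3.65e-06 with the block).

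Late maturation genes were mixed. Of 40 such genes 10 rose and 2 fell, and with the block 24 and 8. The rises numbered 5 without NoDox replicate 3 and 6 without Dox replicate 2. Car2, the carbonic anhydrase that rises in red cell maturation, stood at 2058, 2364 and 2153 CPM in NoDox and 3472, 3628 and 3643 CPM in Dox (0.71 ± 0.09). Hemgn, a nuclear protein of erythroid cells, stood at 101, 111 and 108 CPM in NoDox and 212, 214 and 199 CPM in Dox (0.97 ± 0.07). Catalase (Cat), which red cells use against hydrogen peroxide, went the other way at 194, 169.8 and 170.4 CPM in NoDox and 31.4, 37.9 and 31.2 CPM in Dox (-2.41 ± 0.11, adjusted p = 0.000558), with the lowest untreated library more than 4 times the highest treated one. Car1, another carbonic anhydrase, stood at 2648, 3366 and 3337 CPM in NoDox and 1996, 2605 and 2537 CPM in Dox and did not pass (-0.39 ± 0.15, adjusted p = 0.16).

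**Figure D2:**
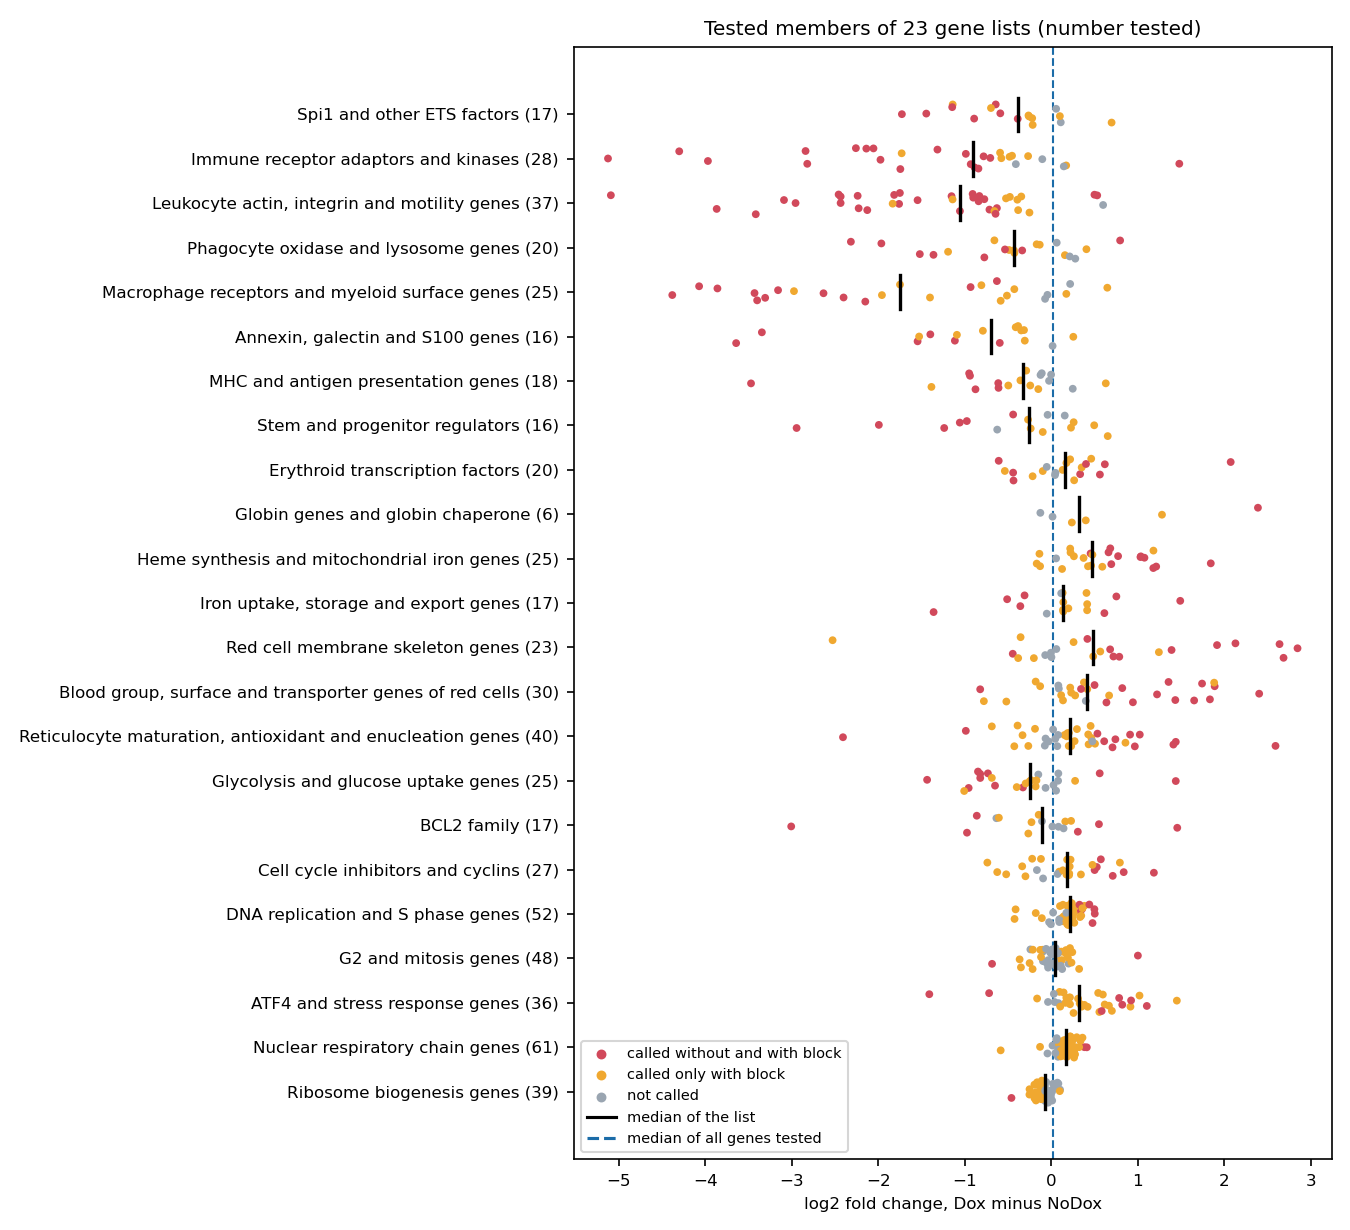
Log2 fold change (Dox minus NoDox) of every tested member of 23 gene lists, with the number tested in brackets; colors mark genes called without the block, only with it, or not, black ticks mark each list's median and the dashed line marks the median of all genes. Leukocyte lists lie to the left, and heme, membrane and surface lists to the right. Replication, respiratory chain and ribosome biogenesis genes form narrow groups (medians 0.21, 0.17 and -0.07, against 0.02 over all genes). Many of their members were called only with the block. ATF4 genes spread more widely, from -1.41 to 1.45.

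Several erythroid genes differed widely between replicate numbers within a group. Slc4a1, the anion exchanger band 3, stood at 1.94, 6.01 and 2.14 CPM in NoDox and 14.5, 36.7 and 21.9 CPM in Dox (2.85 ± 0.56). Replicate 2 was the highest library of each group, all 3 pairs were higher with doxycycline, and the call was lost in 4 of the 6 fits that omit a library (adjusted p up to 0.0971). Alas2, the first enzyme of erythroid heme synthesis, stood at 3.87, 18.04 and 8.31 CPM in NoDox and 10.4, 37.9 and 20.4 CPM in Dox, a rise in all 3 pairs with groups that overlap. It did not pass the test (adjusted p = 0.336), and with the block its log2 fold change was 1.24 ± 0.07 (adjusted p = 1.17e-06). The globin gene Hba-a1, in the same order, stood at 15.1, 65.1 and 36.3 CPM in NoDox and 40.8, 142 and 101 CPM in Dox (adjusted p = 0.268, and 4.93e-07 with the block); a near-identical copy of it shares reads, so its value is uncertain. Sptan1, given above, had the opposite order, with replicate 1 highest in both groups. Mitochondrially encoded RNA also varied by library: mt-Co1 stood at 4968, 9693 and 10690 CPM in NoDox and 5526, 14761 and 5432 CPM in Dox, and 0 of 14 such genes passed with or without the block (edgeR; 0 at an unadjusted p under 0.05 without the block and 0 by DESeq2). What sets the replicate numbers apart is not given by the labels, which do not say that a number marks a shared culture or day.

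**Figure D3:**
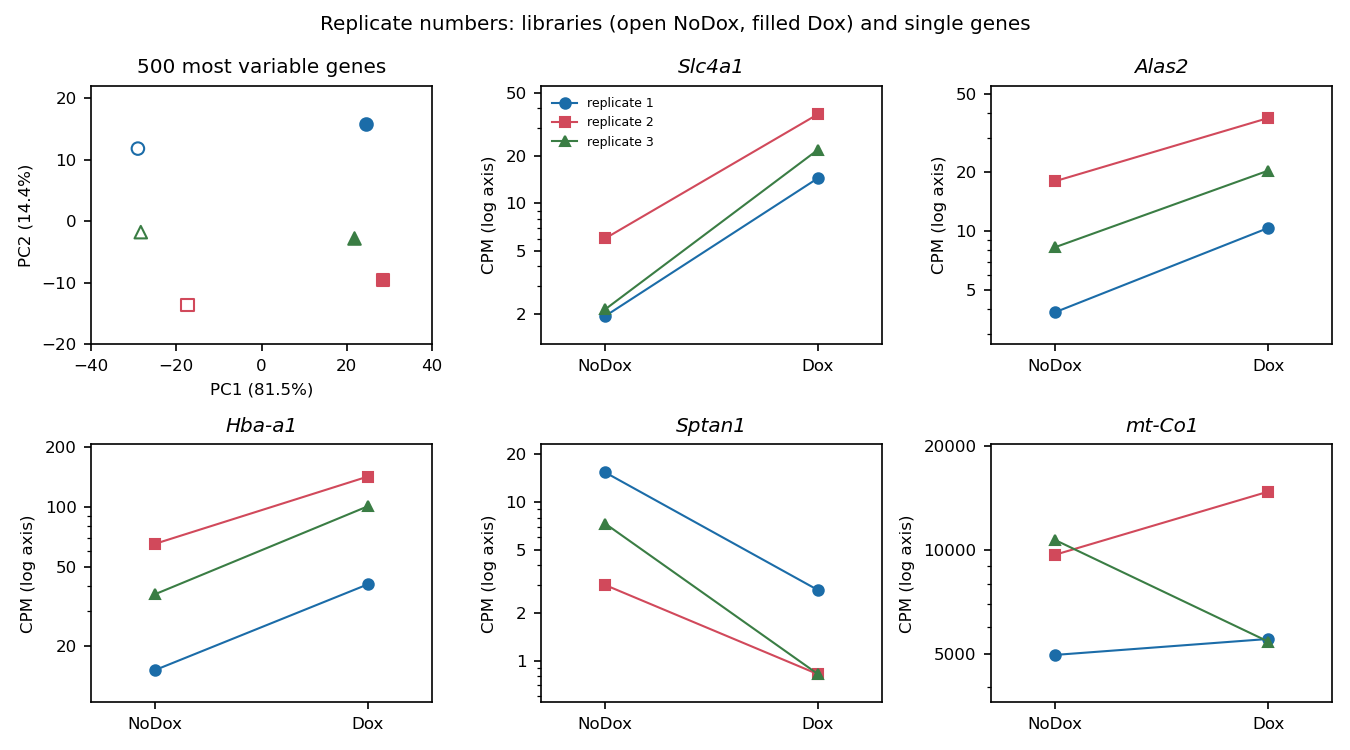
The first panel places the 6 libraries on the first and second principal components (open NoDox, filled Dox), and the others give the CPM of 5 genes on a log axis with lines joining equal replicate numbers. Replicate 2 is highest for Slc4a1, Alas2 and Hba-a1, whose lines run nearly parallel, and replicate 1 is highest for Sptan1.

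Survival genes of the BCL2 family changed in both directions. Mcl1, which protects cells from apoptosis, stood at 309, 335 and 334 CPM in NoDox and 153, 179 and 165 CPM in Dox (-0.97 ± 0.08, adjusted p = 0.00168). Bcl2l1 (BCL-XL), which keeps maturing red cells alive, stood at 24.1, 26.2 and 24.5 CPM in NoDox and 11.2, 15.99 and 13.98 CPM in Dox (-0.86 ± 0.14). Bcl2l11 (BIM), which opposes both, stood at 9.62, 14.4 and 11.4 CPM in NoDox and 29.01, 35.2 and 33.3 CPM in Dox (1.46 ± 0.17). The 3 pairs changed the same way in each. Of 17 BCL2 family genes 3 rose and 3 fell (5 and 7 with the block), the other fall being Bcl2a1a, whose near-identical copies share reads; Bax (0.01 ± 0.11, adjusted p = 0.967) did not pass. The calls of Bcl2l1 and the rises of Bid and Bbc3 (PUMA) were lost when single libraries were left out, Bcl2l1 without NoDox replicate 3 or Dox replicate 3, Bid in every such fit and Bbc3 in all but that without NoDox replicate 2 (adjusted p up to 0.0601, 0.2 and 0.155).

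Of 22 p53 target genes 4 rose and 0 fell (0 at an unadjusted p under 0.05, 0 by DESeq2). The rises numbered 1 without NoDox replicate 3 and 2 without NoDox replicate 1, Dox replicate 2 or Dox replicate 3. With the block 9 rose and 5 fell. Trp53 itself (0.01 ± 0.08, adjusted p = 0.964) and Mdm2 (0.04 ± 0.08, adjusted p = 0.855) did not pass. Cdkn1a (p21), an inhibitor of cyclin-dependent kinases, stood at 4.33, 5.905 and 4.41 CPM in NoDox and 9.31, 12.5 and 11.5 CPM in Dox (1.19 ± 0.18; lost without NoDox replicate 3, adjusted p = 0.0541). Phlda3, an inhibitor of AKT, stood at 0.899, 1.51 and 1.24 CPM in NoDox and 4.26, 5.41 and 5.03 CPM in Dox (2.01 ± 0.22). The cyclin Ccne1, which drives entry into S phase, rose too (0.84 ± 0.09), as did the phosphatase Cdc25b, which starts mitosis (39.7, 39.7 and 40.9 CPM in NoDox and 89.96, 76.2 and 74.7 CPM in Dox, 1.002 ± 0.10). Of 27 cell cycle inhibitors and cyclins 6 rose and 0 fell (5 at an unadjusted p under 0.05, 1 by DESeq2), with rises numbering 1 without NoDox replicate 3, 2 without Dox replicate 3 and 3 without Dox replicate 2, and with the block 17 rose and 7 fell. Racgap1, needed for cell division, fell (-0.68 ± 0.08). Cdc25b and Racgap1 were the only 2 of 48 G2 and mitosis genes called, and with the block 13 rose and 9 fell, or 27.1% and 18.8% against 26.1% and 24.7% of all genes.

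Several glycolytic genes were lower and the red cell pyruvate kinase was higher. Of 25 glycolysis and glucose uptake genes 8 fell and 2 rose (16 and 3 with the block), and the falls numbered 3 without Dox replicate 3 and 5 without NoDox replicate 1, NoDox replicate 2, NoDox replicate 3 or Dox replicate 1. Pkm, the pyruvate kinase of most tissues, stood at 444, 374 and 376 CPM in NoDox and 249, 184 and 182 CPM in Dox (-0.96 ± 0.15). Pklr, the liver and red cell enzyme, stood at 46.5, 57.7 and 40.1 CPM in NoDox and 151, 127 and 114 CPM in Dox (1.44 ± 0.17), with groups apart in opposite directions. The call of Pkm was lost without Dox replicate 3 (adjusted p = 0.0509). Aldoc (-1.44 ± 0.16), Pgam1 (-0.85 ± 0.09) and Pdk1, which holds pyruvate back from the mitochondria (-0.82 ± 0.12), fell, and Ldha (-0.30 ± 0.12, adjusted p = 0.174) did not pass. Of the hypoxia-response genes, Bhlhe40 (-1.65 ± 0.10) and Ndrg1 (-1.40 ± 0.16) fell, in a list of 16 with 2 rises (0 without NoDox replicate 1, NoDox replicate 3, Dox replicate 2 or Dox replicate 3 and 1 without NoDox replicate 2 or Dox replicate 1) and 2 falls, against 9 and 5 with the block. Of 28 cholesterol synthesis genes 3 fell and 0 rose (1 at an unadjusted p under 0.05, 1 by DESeq2), with falls numbering 0 without NoDox replicate 3 or Dox replicate 3 and 1 without NoDox replicate 2, and with the block 13 fell and 4 rose.

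Some large groups of housekeeping genes shifted by small amounts that were called mainly with the block. The block removed the differences between replicate numbers: the common biological coefficient of variation fell from 0.194 to 0.0497, and 5146 further genes were called, with a median absolute log2 fold change of 0.25. Of 52 replication and S phase genes 7 rose and 0 fell without the block (3 at an unadjusted p under 0.05, 2 by DESeq2), and 41 rose and 4 fell with it, with a median of 0.21, where the block called 26.1% and 24.7% of all genes. Without the block the rises numbered 0 without NoDox replicate 3 or Dox replicate 3, 1 without Dox replicate 2, 2 without NoDox replicate 1 and 3 without NoDox replicate 2. Rfc4, a clamp loader, stood at 183, 207 and 208 CPM in NoDox and 271, 291 and 285 CPM in Dox (0.50 ± 0.08). Cdc6, which licenses origins, stood at 131, 146 and 133 CPM in NoDox and 181, 199.7 and 191 CPM in Dox (0.48 ± 0.08). Both lost their calls without NoDox replicate 3 or Dox replicate 3 (adjusted p up to 0.0549 and 0.0807). For Rfc2, another clamp loader, the block gave a fall (-0.41 ± 0.03, adjusted p = 6.55e-06).

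Of 61 nuclear genes of the respiratory chain 2 rose without the block and 50 with it, and 2 fell with it, at a median of 0.17. Without the block the rises numbered 0 without NoDox replicate 1, NoDox replicate 3, Dox replicate 1, Dox replicate 2 or Dox replicate 3. Atp5b, a subunit of the ATP synthase, stood at 2205, 2916 and 2612 CPM in NoDox and 2536, 3153 and 2991 CPM in Dox, an increase of 0.17 ± 0.04 with the block (adjusted p = 0.00454), with groups that overlap. Sdhd, a subunit of complex II, went against the list at 562, 784 and 725 CPM in NoDox and 336, 549 and 496 CPM in Dox (-0.60 ± 0.05 with the block, adjusted p = 7.29e-06). Of 36 genes of the ATF4 stress response 5 rose and 2 fell, and with the block 29 and 3; the rises numbered 2 without NoDox replicate 3 or Dox replicate 2 and 3 without Dox replicate 3. Atf3, a stress-induced factor (1.11 ± 0.21, lost without NoDox replicate 3 or Dox replicate 2, adjusted p up to 0.0924), Nupr1, a small stress-induced nuclear protein (17.1, 16.8 and 16.4 CPM in NoDox and 37.1, 30.1 and 28.3 CPM in Dox, 0.92 ± 0.12) and Slc6a9, the glycine transporter that also feeds heme synthesis (0.82 ± 0.12), rose. Psph, the last enzyme of serine synthesis, fell (-1.41 ± 0.35), a call that held in 1 of the fits that omit a library, that without NoDox replicate 1 (adjusted p up to 0.144), while Psat1, the enzyme before it, stood at 2184, 3232 and 2814 CPM in NoDox and 1822, 3012 and 2516 CPM in Dox (adjusted p = 0.745). Ribosome biogenesis genes counted 1 fall of 39 without the block and 17 falls and 1 rise with it, at a median of -0.07. Of 75 cytosolic ribosomal protein genes 0 passed without the block (edgeR; 4 lower at an unadjusted p under 0.05, 1 by DESeq2), and 25 rose and 10 fell with it. Processed copies of these genes share reads.

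**Figure D4:**
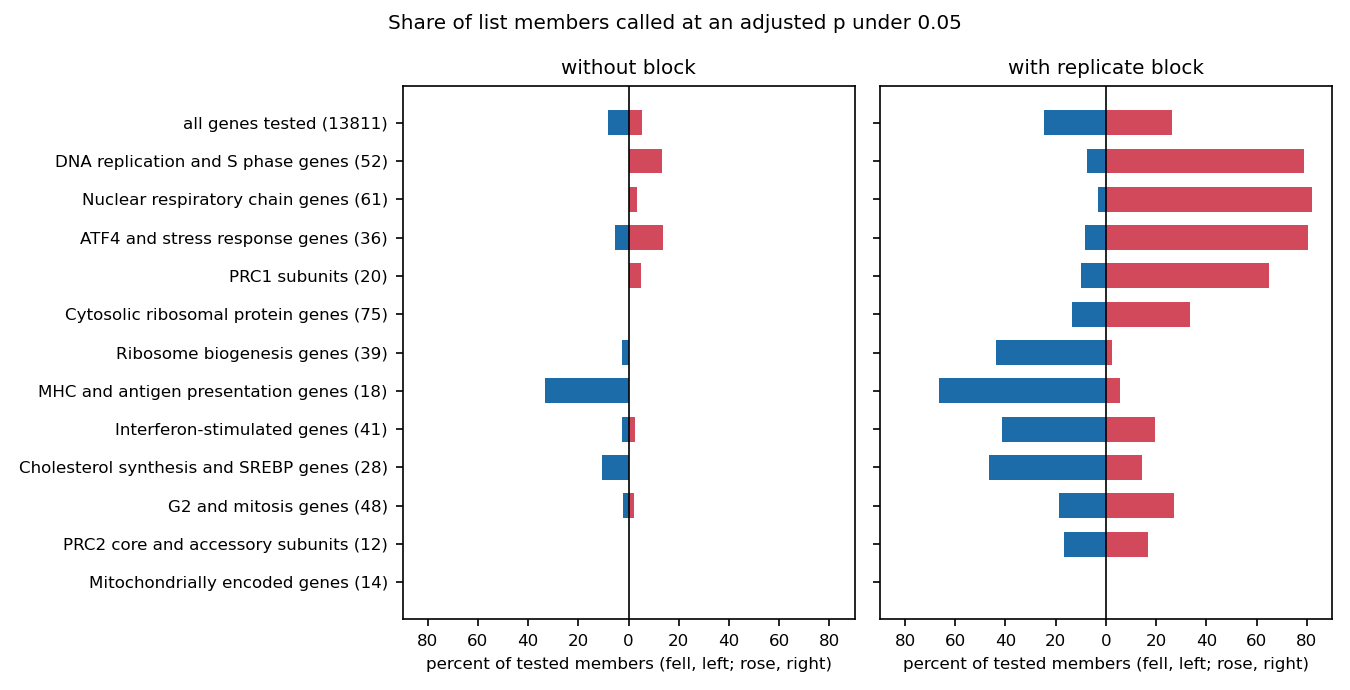
Share of the tested members of 12 gene lists and of all genes that fell (blue, left) or rose (red, right), in percent, without the block and with it. Replication, respiratory chain and ATF4 genes have few calls in the first panel and mostly rises in the second, and mitochondrially encoded genes have none in either.

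Calls among chromatin regulators are given list by list, where 5.26% of all genes rose and 8.36% fell. Of deacetylases and corepressor scaffolds 9.09% rose and 12.1% fell, and of PRC1 genes 5% rose. Of 12 PRC2 subunits 0 passed without the block (edgeR; 1 lower at an unadjusted p under 0.05, 1 by DESeq2), and 2 rose and 2 fell with it. Ezh2, the methyltransferase, stood at 186, 147 and 164 CPM in NoDox and 225, 177 and 187 CPM in Dox (adjusted p = 0.312, and 0.000331 with the block). Of 20 PRC1 genes only Scmh1 rose (13.8, 10.9 and 11.2 CPM in NoDox and 28.9, 20.6 and 21.5 CPM in Dox, 0.99 ± 0.17), and with the block 13 rose and 2 fell; the call of Scmh1 was lost without NoDox replicate 3 (adjusted p = 0.0762). Of 33 deacetylases and corepressor scaffolds 3 rose and 4 fell (rises 0 without NoDox replicate 3 and 1 without Dox replicate 2 or Dox replicate 3, falls 2 without Dox replicate 3), and with the block 9 and 8. Mbd2, which recruits corepressors to methylated DNA, stood at 195, 194 and 181 CPM in NoDox and 107, 122 and 101 CPM in Dox (-0.79 ± 0.09). Hdac7, a class II deacetylase, stood at 221, 146 and 156 CPM in NoDox and 85.5, 63.5 and 75.6 CPM in Dox (-1.22 ± 0.19), a call lost without Dox replicate 3 (adjusted p = 0.0547). Hdac1 stood at 72.9, 77.5 and 75.9 CPM in NoDox and 72.1, 73.9 and 76.8 CPM in Dox (adjusted p = 0.909). Among RNA-binding proteins, Celf2 went from 5.06 ± 3.23 to 0.198 ± 0.111 CPM (-4.67 ± 0.71). The splicing factor Tra2a stood at 149.6, 159 and 156 CPM in NoDox and 237, 234 and 262 CPM in Dox (0.66 ± 0.08), in a list of 43 splicing factors with 2 rises and 4 falls (falls 2 without NoDox replicate 3, Dox replicate 2 or Dox replicate 3), against 9 and 10 with the block. In each fit that omits a library Tra2a was the only one of these genes that rose.

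Other large changes lay outside these groups. Among the largest differences in mean CPM, a scale not corrected for gene length, Adgrg7, an adhesion receptor, stood at 399, 367 and 408 CPM in NoDox and 96.4, 102 and 115 CPM in Dox (-1.91 ± 0.10). Uhmk1, a kinase, stood at 485, 472 and 449 CPM in NoDox and 210.4, 229.9 and 179.98 CPM in Dox (-1.18 ± 0.11). Mtpn, which binds actin capping protein, stood at 411, 504 and 459 CPM in NoDox and 167, 243 and 194 CPM in Dox (-1.18 ± 0.16). All 3 fell, and the rule by which they were named asks for no overlap. On the rising side, Picalm, an adaptor of clathrin coats needed for transferrin uptake, stood at 226, 221 and 208 CPM in NoDox and 369, 389 and 328 CPM in Dox (0.73 ± 0.09). Tmem56 stood at 74.4, 127 and 81.9 CPM in NoDox and 251, 325 and 272 CPM in Dox (1.58 ± 0.22). Phf10, a subunit of a chromatin remodeling complex, stood at 302, 329 and 279 CPM in NoDox and 509, 521 and 482 CPM in Dox (0.73 ± 0.09). By fold change, the actin-severing gene Scin (from 8.42 ± 2.31 to 0.302 ± 0.116 CPM, -4.80 ± 0.34), Muc13, a membrane mucin (from 93.7 ± 33.5 to 8.69 ± 3.205 CPM, -3.43 ± 0.42), and Lpcat2, which makes the lipid mediator PAF (from 41.6 ± 4.897 to 4.97 ± 1.28 CPM, -3.06 ± 0.21), were among the largest falls. The retinaldehyde dehydrogenase Aldh1a1 (from 17.7 ± 5.87 to 88.4 ± 22.05 CPM, 2.32 ± 0.31) and the lipid transfer gene Stard10 (from 5.62 ± 1.63 to 28.1 ± 2.74 CPM, 2.32 ± 0.22) were among the largest rises.

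The same knockdown in DMSO gave the same sign for 714 of 715 rises and 1126 of 1130 falls. The tables were made separately, so each was tested within itself, and their libraries are not shared. In DMSO, where 3.77% of the genes tested rose and 5.53% fell, 383 of the 715 rises that could be tested (53.6%) and 613 of the 1130 falls (54.2%) were called in the same direction, and none in the opposite one. Among the 12640 genes tested in both tables, the calls in DMSO numbered 529 rises and 766 falls, these shared ones included. Without NoDox replicate 3, 560 of the 677 calls tested in DMSO were shared (82.7%), in place of 996 of 1845 (54.0%). With the block in the fits of both experiments, 1839 of 6859 were shared (26.8%). Of the genes called only with the block, 133 of 2811 rises and 141 of 2203 falls were called the same way in DMSO fitted without it. None were called the opposite way, and 96.2% and 88.0% had the same sign. The 529 rises and 766 falls called in DMSO include the 383 and 613 genes also called without the block. Those genes cannot be called only with it, so these shares of the 12640 genes are no background for the 133 and 141. A matching background was not counted, so the 133 and 141 are not read as agreement. The share of all genes with the same sign in both tables was not counted. Among the calls without the block that could be tested in DMSO, 499 of the 715 rises and 609 of the 1130 falls had a larger log2 fold change in size in DMSO, whereas Spi1 itself changed by -1.29 ± 0.33 there against -1.73 ± 0.10 without vehicle. The difference between the tables was not tested.

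Values of single genes in the 2 experiments are given side by side. Tec changed by -3.50 ± 0.24 in DMSO, Pik3cg by -1.78 ± 0.35, Dock2 by -4.01 ± 0.38, Id1 by -2.81 ± 0.29, Mcl1 by -0.97 ± 0.16, Uros by 1.82 ± 0.30 and Il1b by 3.63 ± 0.44, all called. Irf5 stood at 3.303, 3.43 and 4.89 CPM in NoDox_DMSO and 0.0982, 0.367 and 0.345 CPM in Dox_DMSO in DMSO, a change of -3.81 ± 0.42 against -1.62 ± 0.15 without vehicle. Alas2 (2.005 ± 0.33, adjusted p = 0.00156) and Hba-a1 (2.75 ± 0.47, adjusted p = 0.00205), which overlapped between groups without vehicle, were called in DMSO. Rac2, a GTPase of blood cells, was called without vehicle (-0.77 ± 0.07, 497, 495 and 465 CPM in NoDox and 289, 269 and 294 CPM in Dox) and not in DMSO (-0.96 ± 0.28, adjusted p = 0.0515). The 52 replication genes had a median of 0.24 in DMSO and the 61 respiratory chain genes 0.20, against 0.07 over the genes tested in both tables. In DMSO 0 of the replication genes rose and 1 fell, and 0 of the respiratory chain genes rose or fell (edgeR without the block; at an unadjusted p under 0.05, 7 and 1 were higher and 2 and 0 lower, and DESeq2 called 3 and 0 higher and 1 and 0 lower). Of 28 adaptor and kinase genes 19 fell and 1 rose there, and of 25 heme genes 9 rose.

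**Figure D5:**
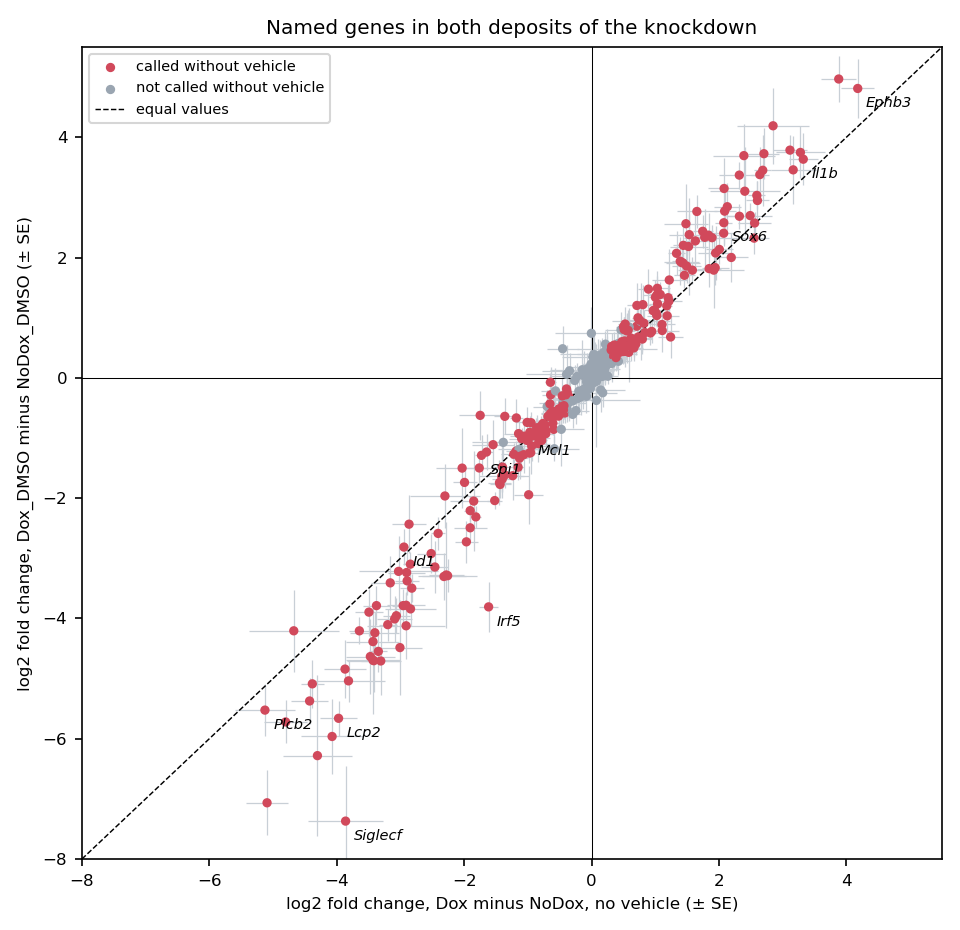
Log2 fold change with doxycycline of 335 named genes without vehicle (x axis) and in DMSO (y axis), with standard errors as gray bars and equal values as a dashed line. All 236 of them that were called without vehicle lie on the same side of 0 in DMSO, and Irf5 lies below the line of equal values. Siglecf was at 0 CPM in all 3 Dox_DMSO libraries, so its value in DMSO depends on the prior count of the fit and cannot be compared.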

How the data were processed

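RNA was sequenced from 3 NoDox and 3 Dox libraries. Per the labels' protocols, total RNA was isolated with RNeasy columns, and libraries of polyadenylated RNA were made from 300 ng with the TruSeq RNA v2 kit, which does not mark strand, so overlapping and antisense genes cannot be told apart. The authors deposited raw counts per gene, with no value under 1; 3543 of 25628 genes were at 1 in every library. The tools STAR, bcl2fastq 2.17.1.14 and DESeq2 and the build mm10 are listed per the submitters' processing notes, without roles, and the counter and annotation are not given in the sources used here. There are no molecular identifiers, so reads are not independent molecules, and p-values measure the spread between libraries.

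The counts were fitted with edgeR 4.0.16 (quasi-likelihood, TMM factors, filterByExpr, 13811 genes kept) in R 4.3.3, with Benjamini-Hochberg adjustment and a threshold of 0.05. The samples carry equal replicate numbers, and the labels do not say what a number marks. Deviations from the group means correlated at 0.829, 0.724 and 0.313 between libraries of equal number, and each library correlated best with its own number. For number 3 the margin was narrow, as Dox replicate 3 correlated at 0.259 with NoDox replicate 2. The number was taken to pair the libraries, and the block is given as an alternative. It leaves 2 residual degrees of freedom, against 4 without it, and no fit that omits a library was made with it. The DMSO table, of 12 libraries, was fitted on its own. Its entinostat libraries were part of that fit, so they enter the spread behind the p-values in DMSO. The further alternatives were scaling by RLE factors or by library size, no filter, a filter at 1 CPM, DESeq2 1.42.0, counts minus 1, removal of length and GC trends, and leaving out each library. Scripts were tested on simulated data.

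The comparison and the 49 gene lists were chosen with earlier results of these data known. Genes named are a set of blood and chromatin regulators, the 25 largest rises and falls by fold and the 10 by CPM among genes called in every fit that omits a library (at least 5 CPM, no overlap), and from each list up to 6 called and 2 uncalled members and those against its majority. Named outside this rule, after their values were seen, were Alas2, Bax, Bcl2a1a, Capg, Cd37, Cd84, Cish, Cpox, Fech, Flvcr1, Hba-a1, Hmox1, Hmox2, Ireb2, Itgb2, Kel, Lcp1, Lyn, Mdm2, Nckap1l, Pik3cd, Pik3cg, Pim1, Plcg1, Rfc2, Sdhd, Skap2, Sptan1 and Trim10, and the cell type markers Cd14, Csf1r, Itgam and Mrc1.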

Additional observations from a re-analysis of the deposited data

How the results depend on the processing

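No change of setting that was run reversed the direction of a named gene that passed the threshold with or without that change, whereas 31 named genes that did not pass changed sign between the fits that omit a library (Gata2 from -0.21 to 0.15). The fall of Spi1 passed the threshold in every setting. The replicate block gave 3611 rises and 3416 falls, against 727 and 1154 without it. With the block in the fits of both experiments, 1839 of 6859 calls tested in DMSO were called the same way there (26.8%). Without it these were 996 of 1845 (54.0%). The block with length and GC trends removed gave 3739 rises and 3527 falls, and DESeq2 gave 1138 rises. Leaving out 1 library gave 197 to 567 rises and 487 to 941 falls. It gave 560 to 1173 calls shared with DMSO (libraries of either table left out, those with entinostat included). The fewest of each came without NoDox replicate 3, and the 1173 shared calls without replicate 1 of the untreated cells given entinostat. The 560 shared calls were 82.7% of the 677 tested in DMSO, and the 1173 were 63.4% of 1849. Of the 335 named genes, 65 came to pass the threshold with the block and none lost it, 36 no longer passed without the filter on low counts, and 33 to 97 no longer passed when 1 library was left out. Of 98 counts of list members, 77 moved by more than 1.5 times with the block, 52 without NoDox replicate 3 and 19 with DESeq2. What sets NoDox replicate 3 or the replicate numbers apart was not tested, so the cause was not tested. Each fit that omits a library compares 2 libraries with 3. Depth, at 82.7 to 114 M counts, limits only genes near the table's lowest value of 1, where a count of 0 cannot be told from 1.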
